A study of Rattus norvegicus with 6 samples.

Results

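The genes described here encode the enzymes, carriers and regulators of fatty acid oxidation in peroxisomes and mitochondria, measured in rat liver after a diet with epsilon-momfluorothrin, a pyrethroid insecticide. Of 39 genes chosen by symbol for their place in these pathways, 38 had a probe set that the platform annotation assigns to that gene alone. They were represented by 52 of the 31099 probe sets, of which 48 were bright enough to be tested, and all 38 genes kept at least 1. They are 38 of the 9200 genes tested. The remaining gene, Acaa1a, was covered only by a probe set shared with Acaa1b. The animals were male BrlHan:WIST@Jcl(GALAS) rats, a Wistar strain, which arrived when 4 weeks old, spent 1 week in quarantine and were sampled at the age of 7 weeks. One group of 3 received the control diet (0 ppm) and the other group of 3 the diet with epsilon-momfluorothrin, both freely available and fed for 2 weeks, with 1 liver and 1 Affymetrix array per animal. The sample titles and the treatment protocol state 3000 ppm, whereas the characteristics state 5000 ppm, so the group is called momfluorothrin here without a dose.

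Long-chain fatty acids enter mitochondria through the carnitine shuttle (Cpt1a, Slc25a20, Cpt2) and are shortened there by acyl-CoA dehydrogenases, hydratases, dehydrogenases and thiolases, with electrons passed on through the electron transfer flavoproteins. Peroxisomes shorten very long and branched chains, and bile acid precursors, with acyl-CoA oxidases that yield hydrogen peroxide, which catalase removes. In rodent liver both pathways are controlled by the nuclear receptor PPAR-alpha, and several members, among them Ehhadh, Acot1, Cpt1a, Pdk4, Vnn1, Fgf21 and Angptl4, are known as its targets. PPAR-alpha with its partner RXR binds a direct repeat of the hexamer AGGTCA with 1 base between the copies.

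The array medians did not overlap between the groups, and were 28.3 ± 1.18 in control livers and 25.2 ± 1.83 in momfluorothrin livers (signal, SD, n = 3 each, 2-sided exact permutation p = 0.1, which is the lower limit for groups of 3). Pairs of arrays correlated at r = 0.964 to 0.97 within control, 0.972 to 0.974 within momfluorothrin and 0.958 to 0.971 between the groups, over log2 signals of all tested probe sets, which are not independent replicates. None of 11 hepatocyte markers on the array was dim, meaning at or below the array median, on all 6 arrays, and their signals summed to 88932 to 97070 in control livers and 79780 to 89342 in momfluorothrin livers. All 11 had a log2 difference below 0 (median -0.15), with none past the threshold. For 5 of them every treated signal lay below every control (45.5%, against 9.23% of all genes). An unadjusted p under 0.05 in limma was reached by 3, all lower (27.3%, against 6.18% of all genes). Of 6 cholangiocyte markers on the array, 4 (Cftr, Cldn4, Krt7 and Spp1) were dim throughout. All 6 together summed to 106 to 144 in control livers and 152 to 177 in momfluorothrin livers, without overlap. Only 1 of them was bright enough to be tested, with a log2 difference of 0.63. It was higher without overlap (background 9.04%), with an unadjusted p under 0.05 in limma (background 6.05%), but not past the threshold. Among the 7 blood cell markers Cd3e and S100a8 were dim. The summed Kupffer cell markers (1566 to 2086 against 1591 to 1868), stellate cell markers (2273 to 2928 against 2481 to 2630) and endothelial markers (2497 to 2849 against 2766 to 2972) overlapped between the groups. In whole liver, a change in the number of cells of a type and a change in RNA per cell cannot be told apart. The part of these markers in the differences given next was not tested.

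No gene of fatty acid oxidation passed the test for a difference between the diets. Signals were compared on the log2 scale with limma, and a call was an adjusted p under 0.05 over all tested probe sets. By that rule 0 of the 38 members were higher and 0 lower, where 0.217% of all 9200 genes were called, 0.196% as higher and 0.0217% as lower. At an unadjusted p under 0.05 in limma, 3 members were higher (Acot8, Cpt2 and Acads) and 4 lower (Scp2, Crot, Pdk4 and Fgf21), which is 18.4% of the members against a background of 12.2% of all genes (6.05% higher and 6.18% lower). The 3 momfluorothrin signals lay on one side of the 3 control signals for 6 members, 15.8% against 18.3% of all genes. Of these, 4 were higher (Acot8, Acox3, Cpt2 and Acads; background 9.04%) and 2 lower (Scp2 and Cat; background 9.23%), where Cat is lower by the deposited scaling but not after quantile normalization. The median log2 difference over the members was 0.00, against -0.01 over all genes. Leaving out control replicate 2 brought Acot8 past the threshold and changed no other member's call.

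**Figure D1:**
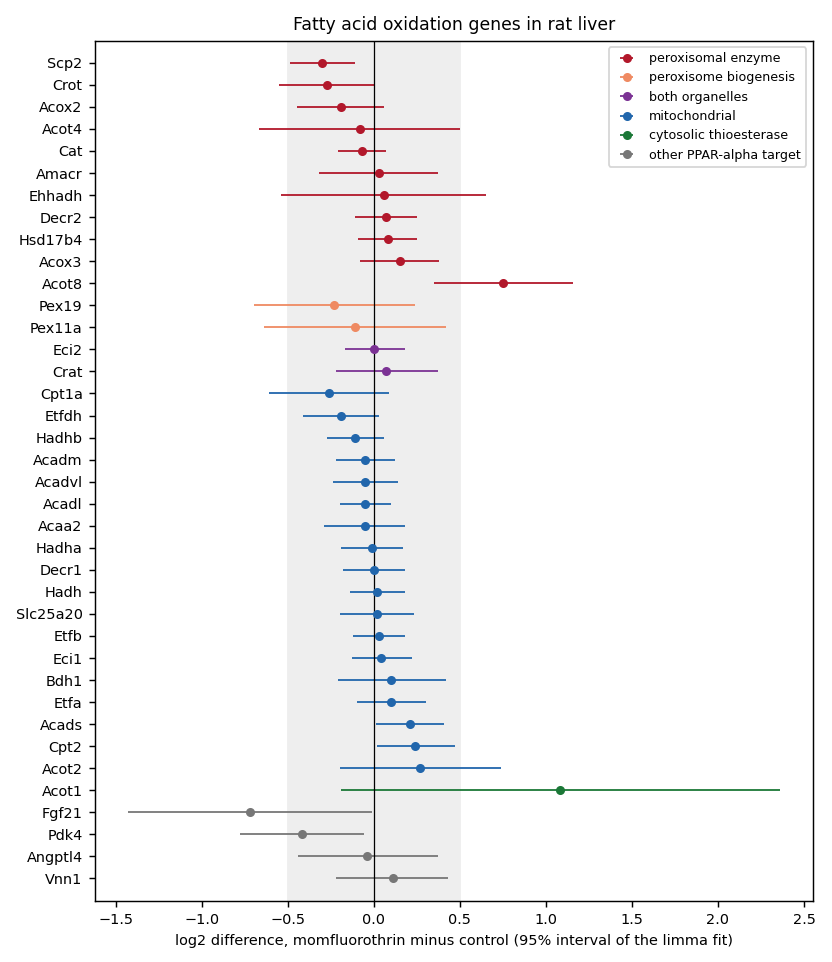
Log2 difference between momfluorothrin and control livers for each of the 38 members (points) with its 95% interval from the limma fit (lines), coloured by class; the shaded band marks differences of at most 0.5 in either direction. The mitochondrial genes cluster around 0, and Acot8 is the peroxisomal gene farthest from it, at 0.75.

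The intervals show how large a change the 6 arrays could have missed. For 27 of 38 members the 95% interval of the difference lay within 0.5 of 0 on the log2 scale, that is within 1.41-fold, and for 35 it lay within 1, or 2-fold. The 3 genes whose intervals reached beyond 1 were Acot1 (-0.19 to 2.36), Acot8 (0.35 to 1.16) and Fgf21 (-1.43 to -0.01). The Acot8 interval was not wide, being narrower than that of Ehhadh (-0.54 to 0.65), but lay away from 0. Among all 9200 genes, 4779 had an interval within 0.5 and 8291 within 1; the members had a median signal of 1330, against 123 over all genes.

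The regulatory stretches of the 4 members with the smallest unadjusted p are shown so that the hexamers named above can be seen in place. Each sequence is from RefSeq on the build GRCr8, holds 250 bases before and 50 bases after the annotated start of the gene, and runs 5′ to 3′ on the gene's own strand, which is the minus strand for all 4. Capitals mark matches on either strand to the hexamer AGGTCA, the CCAAT box (CCAAT), the TATA box (TATAAA) and the GC box (GGGCGG). Acot8 lies at chr3:173962139-173962438, Scp2 at chr5:128109966-128110265, Pdk4 at chr4:34568280-34568579 and Cpt2 at chr5:127910769-127911068.
Acot8: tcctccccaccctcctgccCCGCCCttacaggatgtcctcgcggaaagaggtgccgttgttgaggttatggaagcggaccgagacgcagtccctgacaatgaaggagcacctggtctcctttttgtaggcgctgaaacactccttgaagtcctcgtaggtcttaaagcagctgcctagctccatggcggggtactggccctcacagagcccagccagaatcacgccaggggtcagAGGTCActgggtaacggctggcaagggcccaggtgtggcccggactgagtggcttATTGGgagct
Scp2: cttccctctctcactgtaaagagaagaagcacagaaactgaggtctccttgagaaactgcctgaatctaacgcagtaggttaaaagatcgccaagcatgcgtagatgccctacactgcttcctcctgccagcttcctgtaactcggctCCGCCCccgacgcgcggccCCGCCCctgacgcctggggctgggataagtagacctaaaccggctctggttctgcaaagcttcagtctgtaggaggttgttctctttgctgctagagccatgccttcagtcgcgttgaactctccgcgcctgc
Pdk4: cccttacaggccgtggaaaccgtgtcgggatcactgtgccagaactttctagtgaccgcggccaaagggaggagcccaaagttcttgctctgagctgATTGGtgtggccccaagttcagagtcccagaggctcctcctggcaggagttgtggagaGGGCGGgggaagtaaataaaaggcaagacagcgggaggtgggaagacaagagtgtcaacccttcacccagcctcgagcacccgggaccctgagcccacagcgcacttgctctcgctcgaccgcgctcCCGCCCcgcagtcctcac
Cpt2: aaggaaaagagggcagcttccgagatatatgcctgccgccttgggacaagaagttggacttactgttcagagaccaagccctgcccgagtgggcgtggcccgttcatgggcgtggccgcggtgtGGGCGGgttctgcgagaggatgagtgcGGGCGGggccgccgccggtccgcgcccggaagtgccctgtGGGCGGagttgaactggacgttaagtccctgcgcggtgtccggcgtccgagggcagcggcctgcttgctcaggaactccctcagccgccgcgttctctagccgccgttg
The Acot8 window held 1 AGGTCA hexamer, 1 CCAAT box and 1 GC box, Scp2 held 2 GC boxes, Pdk4 held 1 CCAAT box and 2 GC boxes, and Cpt2 held 3 GC boxes. The table gave such a window for 34 of the 38 members. None of the 34 held the direct repeat AGGTCANAGGTCA or its looser form AGGNCANAGGNCA, which occurred in 0.0538% and 0.415% of 33469 rat promoter windows. Before the hexamer of Acot8, with 1 base between, stand the letters GGGTCA, which differ from another copy in 1 letter. Neither form allows a change at that letter, and repeats with such changes were not counted. A single AGGTCA was found in 9 members (26.5% against 16.2% of all windows), a motif that each direct repeat in its strict form also contains. The GC box was found in 26 members (76.5% against 33.1%), the CCAAT box in 15 (44.1% against 37.5%) and the TATA box in 2 (5.88% against 14.2%), namely Fgf21 and Angptl4, both of which encode secreted proteins. The 33469 windows were not limited to the 9200 genes tested, so these shares are not set against genes matched to the members. A match is a description of the letters in these windows, and sites farther from the start were not searched.

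By the brightest probe set of each gene, thioesterase Acot8 and the carrier protein Scp2 stood farthest from 0 among peroxisomal enzymes, in opposite directions. As a mean over probe sets, Crot lay farther below 0 (-0.35) than Scp2 (-0.26). Acot8, which releases fatty acids from their CoA esters in the peroxisome, had signals of 83.4, 125 and 76.9 in control livers and 161, 153 and 155 in momfluorothrin livers. All 3 treated animals lay above all 3 controls, and the treated animals were closer to each other (SD 4.1) than the controls were (SD 25.8). The log2 difference was 0.75 ± 0.18 (SE, n = 3 each), 1.68-fold, with an adjusted p of 0.186 in limma. It ran from 0.62 to 0.96 when single arrays were left out. The adjusted p over all alternatives was 0.0441 to 0.41, and 0.0441 was reached without control replicate 2, the control with the highest Acot8 signal.

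Scp2 encodes both a sterol carrier and, from its longer transcript, the thiolase that cleaves branched chains and bile acid side chains. Its signals were 6746, 6829 and 6864 in control livers and 6143, 4978 and 5557 in momfluorothrin livers. The controls differed by 1.02-fold at most, and each treated animal lay below them. The log2 difference was -0.30 ± 0.08 (SE, adjusted p = 0.248 in limma), and a further probe set of the gene, with signals of 2519, 2431 and 2342 against 2284, 1807 and 2158, also did not overlap between the groups, at -0.23 ± 0.10. Which of the Scp2 transcripts each probe set reads is not given in the sources used here.

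Crot, which makes carnitine esters of the chains that peroxisomes have shortened so that they can leave, had signals of 2918, 3577 and 2684 in control livers and 2460, 2277 and 2829 in momfluorothrin livers. The groups overlapped through control replicate 3 and momfluorothrin replicate 3. The log2 difference was -0.27 ± 0.12 (SE, adjusted p = 0.432 in limma), and a further tested probe set gave -0.44 ± 0.15. Cat, which encodes catalase, had signals of 7415, 7888 and 7627 in control livers and 7168, 7301 and 7384 in momfluorothrin livers, a difference of -0.07 ± 0.06 that did not overlap between groups but turned to 0.05 with quantile normalization. The branched-chain oxidase Acox3 likewise did not overlap, at 151, 159 and 170 against 174, 178 and 181 (0.15 ± 0.10, adjusted p = 0.59 in limma). Acox2, the oxidase of bile acid precursors, was at 959, 1285 and 1120 against 964, 930 and 1032, a difference of -0.19 ± 0.11 with overlapping groups.

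**Figure D2:**
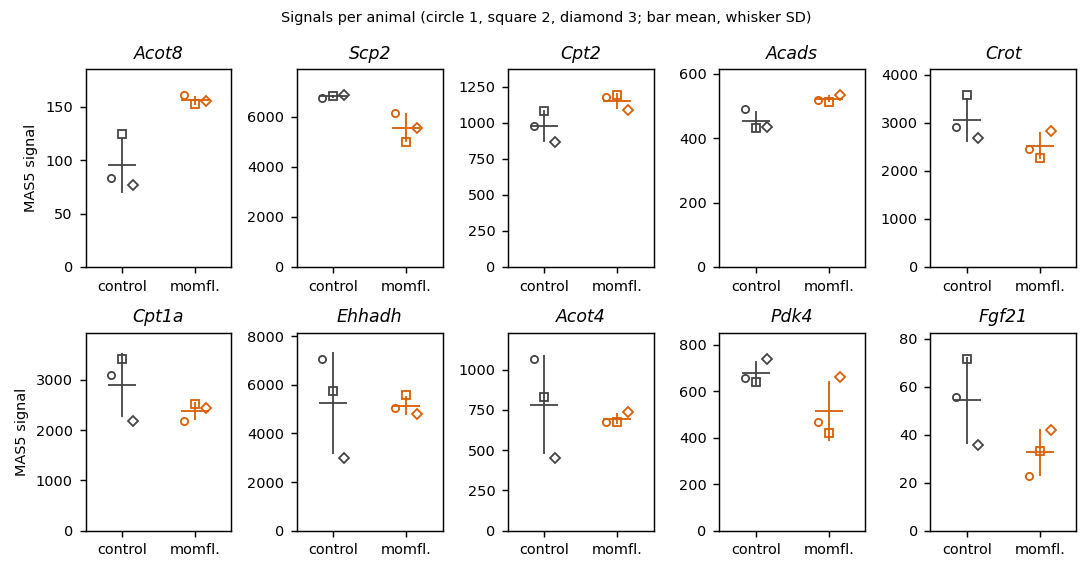
Deposited MAS5 signal of 10 members in each animal (vertical axes start at 0), with the group mean (bar) and SD (whisker); symbols give the replicate number. The treated signals of Acot8 lie between 153 and 161, above every control, whereas the controls of Ehhadh spread from 2972 to 7059.

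Ehhadh, the bifunctional peroxisomal enzyme with hydratase and dehydrogenase activity, was the member whose control animals differed most in signal units. It had signals of 7059, 5724 and 2972 in control livers and 5062, 5573 and 4797 in momfluorothrin livers. All treated animals fell inside the range of the controls, and the highest control exceeded the lowest 2.37-fold. The log2 difference was 0.06 ± 0.26 (SE, adjusted p = 0.949 in limma), with a 95% interval of -0.54 to 0.65. Without control replicate 3 the difference was -0.31 (unadjusted p = 0.0235, adjusted p = 0.424 in limma), and without momfluorothrin replicate 2 it was -0.0018. The second bifunctional enzyme, Hsd17b4, which handles branched chains and bile acid precursors, was steadier, at 0.08 ± 0.07, with 3097, 3069 and 2729 against 3134, 3057 and 3195.

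Decr2, Amacr and Acot4 had differences no larger than their errors. Decr2, the peroxisomal dienoyl-CoA reductase, was at 0.07 ± 0.08, and Amacr, the racemase of branched chains, at 0.03 ± 0.15. Amacr changed sign without control replicate 2 or 3 or momfluorothrin replicate 2. The thioesterase Acot4 had signals of 1066, 829 and 453 in control livers and 675, 677 and 738 in momfluorothrin livers, so that the treated group again lay within the range of the controls (-0.08 ± 0.26, 95% interval -0.67 to 0.50). Without control replicate 1 or 2 the Acot4 difference was above 0. The probe set shared by Acaa1b and Acaa1a, the peroxisomal thiolases, had signals of 2788, 2284 and 2213 against 3075, 2668 and 2819, a difference of 0.24 ± 0.10 with overlapping groups and a 95% interval of 0.01 to 0.47 (adjusted p = 0.429 in limma). Of the biogenesis factors, Pex11a, which promotes peroxisome division, was at -0.11 ± 0.23 with 877, 719 and 452 against 730, 625 and 493, and Pex19, the import receptor of membrane proteins, at -0.23 ± 0.21. Pex19 was at -0.07 without momfluorothrin replicate 2 and at -0.49 without momfluorothrin replicate 1. Pex11a turned above 0 without control replicate 1 or momfluorothrin replicate 3. A pair of further probe sets, shared by Pex19 and an uncharacterised locus, had differences of -0.05 ± 0.15 and 0.04 ± 0.11.

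In the mitochondrial pathway, the outer and inner carnitine palmitoyltransferases had differences of opposite sign. Cpt1a, the outer enzyme and the controlled step of entry, had signals of 3094, 3417 and 2183 in control livers and 2180, 2531 and 2433 in momfluorothrin livers. Control replicates 1 and 2 were above every treated animal, and control replicate 3 lay at their lower end. The log2 difference was -0.26 ± 0.15 (SE, adjusted p = 0.549 in limma), with -0.33 ± 0.18 for a further probe set. The first was -0.13 without control replicate 2 and -0.45 without control replicate 3 (adjusted p = 0.812 and 0.175 in limma). Cpt2, the inner enzyme, had signals of 981, 1085 and 868 in control livers and 1180, 1193 and 1090 in momfluorothrin livers. Each treated animal was above each control, the nearest pair being 1085 and 1090, and the difference was 0.24 ± 0.10 (adjusted p = 0.409 in limma). The carrier Slc25a20, which acts between these enzymes, was at 0.02 ± 0.10, and it turned below 0 with quantile normalization and without control replicate 3 or momfluorothrin replicate 1.

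Of the acyl-CoA dehydrogenases, which are divided by chain length, Acads, the short-chain enzyme, had signals of 491, 433 and 435 in control livers and 520, 514 and 534 in momfluorothrin livers. The groups did not overlap, and the difference was 0.21 ± 0.09 (SE, adjusted p = 0.425 in limma). The medium-chain, long-chain and very-long-chain enzymes Acadm, Acadl and Acadvl were each at -0.05, with SE of 0.08, 0.07 and 0.08. Acadl was the steadiest of the dehydrogenases across controls, at 2792, 2821 and 2778, against 2787, 2645 and 2685 in treated livers. Acadm turned above 0 without momfluorothrin replicate 2 and Acadvl without control replicate 2. The test of Acads against the longer-chain enzymes was not made.

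Most enzymes of the later steps were near 0. The subunits of the trifunctional protein, Hadha and Hadhb, were at -0.01 ± 0.08 and -0.11 ± 0.07, Hadh at 0.02 ± 0.07 and the thiolase Acaa2 at -0.05 ± 0.10. The auxiliary enzymes for unsaturated chains, Decr1 and Eci1, were at 0.00 ± 0.08 and 0.04 ± 0.08. Apart from Hadhb, which stayed below 0 under all alternatives, these differences were smaller than their errors. The signs of Hadha, Hadh, Acaa2, Decr1 and Eci1 changed when single arrays were left out. Those of Hadha with median centring, Acaa2 with quantile normalization and Decr1 with array weights changed too. Etfa, Etfb and Etfdh pass electrons from the dehydrogenases to the respiratory chain. The flavoprotein subunits Etfa and Etfb were at 0.10 ± 0.09 and 0.03 ± 0.07, and their oxidoreductase Etfdh at -0.19 ± 0.10, with 1142, 1181 and 1026 in control livers and 1082, 906 and 946 in momfluorothrin livers. Bdh1, which makes the ketone body hydroxybutyrate, was at 0.10 ± 0.14, with -0.09 ± 0.10 for a further probe set, and turned below 0 without control replicate 3. Crat and Eci2, classed here as enzymes of both organelles, were at 0.07 ± 0.13 and 0.00 ± 0.08. Both changed sign when single arrays were left out, Eci2 also with quantile normalization. A probe set annotated to Eci3 and Eci2 together had signals of 1503, 1323 and 1639 against 1628, 1815 and 1922, a difference of 0.27 ± 0.10 with overlapping groups (adjusted p = 0.381 in limma).

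Set side by side, the peroxisomal and mitochondrial enzymes had medians near 0. The peroxisomal range reached higher through 1 gene, Acot8 at 0.75, and the next highest was Acox3 at 0.15. The 11 measured peroxisomal enzymes had a median log2 difference of 0.03 (-0.30 to 0.75, 6 above 0 and 5 below), and the 18 mitochondrial ones a median of 0.01 (-0.26 to 0.27, 10 above and 8 below). The groups did not overlap for 2 peroxisomal enzymes above and 2 below (36.4%, background 18.3%), and for 2 mitochondrial enzymes above and none below (11.1%). In the lists of further pathway genes described at the end, the order was the reverse. There the groups did not overlap for 5 of 30 peroxisomal enzymes (16.7%) and 10 of 27 mitochondrial ones (37%). The 95% interval lay within 0.5 of 0 for 16 of 18 mitochondrial and 7 of 11 peroxisomal enzymes. By array, the peroxisomal median of log2 signal relative to the control mean was -0.04, 0.11 and -0.07 in control livers and -0.09, 0.03 and 0.00 in momfluorothrin livers, and the mitochondrial median was 0.04, 0.04 and -0.09 against 0.01, 0.00 and 0.02. The treated values lay within the range of the controls for mitochondrial enzymes, and within or next to it for peroxisomal ones. Without control replicate 3 the peroxisomal median was -0.07, and without control replicate 1 it was 0.11. The dienoyl-CoA reductases of the 2 organelles, Decr2 and Decr1, were at 0.07 ± 0.08 and 0.00 ± 0.08. The difference between the classes was not tested.

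**Figure D3:**
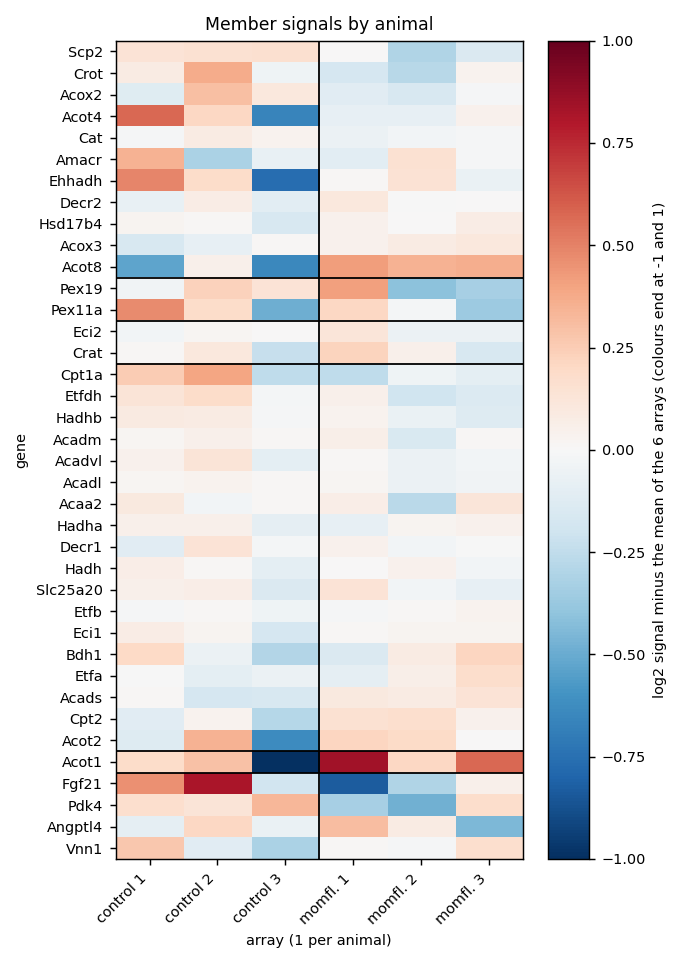
Log2 signal of each member on each array minus that gene's mean over the 6 arrays (red above, blue below; lines part the classes of genes, in the order of the plot of differences, and the groups of animals). Control replicate 3 is blue for Ehhadh, Acot4, Acot8, Pex11a, Acot2 and Acot1, while the rows of Acadl, Acadm, Etfb and Cat stay pale.

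For 26 of 38 members the SD of log2 signals was larger in control than in momfluorothrin livers (68.4%, against 51.7% of all genes), and 1 control animal was often the lowest. Control replicate 3 had the lowest of the 6 signals for 18 of 38 members (47.4%), where it was lowest for 17.1% of all genes. It was also lowest for 34 of the 96 tested genes in the lists of further pathway genes described at the end (35.4%). It was lowest among the 3 controls for 25 members (65.8%, against 33% of all genes). The 18 genes were the peroxisomal Ehhadh, Hsd17b4, Decr2, Acot4 and Acot8, the mitochondrial Acot2, Cpt2, Acadvl, Hadh, Hadha, Eci1, Etfb, Bdh1 and Slc25a20, and Crat, Acot1, Pex11a and Vnn1. The pantetheinase gene Vnn1 is an example, with 790, 605 and 526 in control livers and 660, 648 and 734 in momfluorothrin livers (0.11 ± 0.14, and below 0 without control replicate 3). For peroxisomal enzymes the control SD was the larger in 10 of 11 genes (median 0.21 against 0.07). For mitochondrial enzymes it was the larger in 12 of 18 (median 0.11 against 0.08), and over all genes the medians were 0.16 against 0.15.

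**Figure D4:**
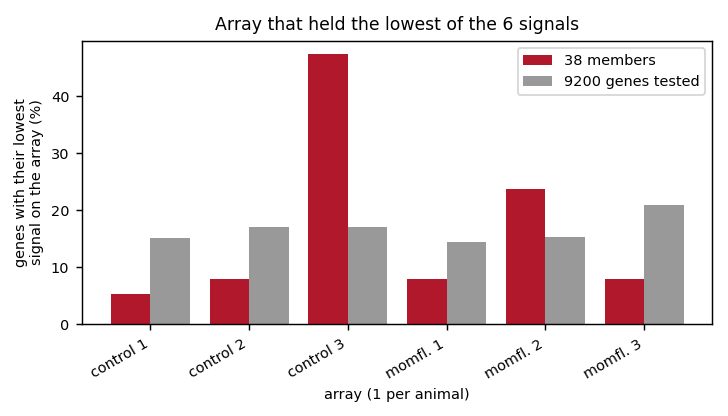
Share of genes whose lowest signal of the 6 was on each array, for the 38 members (red) and all 9200 genes tested (grey), in percent. Control replicate 3 held the lowest signal of 47.4% of the members and 17.1% of all genes.

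Without that animal, 17 members did not overlap between the groups, 4 higher and 13 lower in momfluorothrin livers (44.7%, against 29.5% of all genes in that comparison of 2 with 3, with 14.7% higher and 14.8% lower). The 13 lower ones were Ehhadh, Acot4, Crot, Scp2, Cat, Cpt1a, Acadl, Acadvl, Hadha, Hadhb, Eci1, Etfdh and Fgf21, and the 4 higher ones Acot8, Acox3, Cpt2 and Acads. Since this animal was singled out for its low signals in these genes, leaving it out raises the control values by construction, and nothing is read from the excess of lower genes. At an unadjusted p under 0.05 there were then 8 members (background 11.2%), and after adjustment in limma there were 0. Which of the 3 controls is typical of the diet cannot be told from these arrays.

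The thioesterases Acot1 and Acot2 come from a cluster of near-identical genes that also holds Acot4, and their probe sets may read more than 1 of them. Acot1, the cytosolic enzyme, had signals of 56.7, 61.2 and 11.6 in control livers and 89.4, 57.6 and 74.1 in momfluorothrin livers, a difference of 1.08 ± 0.56 whose interval ran from -0.19 to 2.36. The signal of control replicate 3 was below the median of its array, and without that animal the Acot1 difference was 0.30. Acot2, the mitochondrial enzyme, had signals of 1015, 1413 and 719 against 1285, 1266 and 1112 (0.27 ± 0.21, adjusted p = 0.65 in limma), a difference that was 0.02 without control replicate 3 and 0.51 without control replicate 2. Its other tested probe sets were at -0.08 ± 0.23 and -0.21 ± 0.33, and the mean over the 3 was -0.004. One of them, with 1100, 833 and 514 in control livers and 705, 741 and 771 in momfluorothrin livers, ran close to the Acot4 signals given above on every array. A probe set annotated to Acot2 and Acot1 together was at -0.34 ± 0.31. In all, 9 members had several tested probe sets, whose differences shared a sign in 7 genes and not in Acot2 and Bdh1.

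Of the secreted and regulatory members, Pdk4 and Fgf21 had differences below 0 with overlapping groups, and neither passed the test. Pdk4, the kinase that shuts off pyruvate dehydrogenase so that fat is burned in its place, had signals of 656, 640 and 738 in control livers and 466, 420 and 661 in momfluorothrin livers. Momfluorothrin replicate 3 lay among the controls and the other treated animals under them. The difference was -0.42 ± 0.16 (SE, adjusted p = 0.381 in limma), and -0.48 ± 0.17 for a further probe set. The first was -0.29 without momfluorothrin replicate 2 and -0.61 without momfluorothrin replicate 3. Fgf21, a hormone of the fasted liver, had low signals of 55.7, 71.5 and 35.5 in control livers and 22.8, 33 and 42.1 in momfluorothrin livers, near the array medians, with a difference of -0.72 ± 0.31 (adjusted p = 0.429 in limma), which was -0.48 without momfluorothrin replicate 1 and -1.0 without control replicate 3. Angptl4, which inhibits lipoprotein lipase, was at 800, 980 and 813 against 1055, 902 and 622, a difference of -0.04 ± 0.18 with no order between the groups, which turned above 0 without control replicate 2 or momfluorothrin replicate 3.

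Other genes of these pathways gave no call either. Of 114 genes in lists of further peroxisomal enzymes, peroxins, mitochondrial enzymes, ketone metabolism and regulators, 96 were tested, and 0 were higher and 0 lower after adjustment in limma. At an unadjusted p under 0.05 in limma, 8 were higher and 8 lower (16.7%, background 12.2%), and the groups did not overlap for 14 above and 9 below (24%, background 18.3%). The median log2 difference was 0.03 over all 96, 0.01 over 30 peroxisomal enzymes, 0.05 over 13 peroxins, 0.04 over 27 mitochondrial enzymes, -0.04 over 4 ketone genes and 0.08 over 22 regulators.

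The 4 of these genes with the smallest unadjusted p lay in ketone, activation and amino acid steps. Slc16a1, a carrier of lactate and ketone bodies, had signals of 1067, 1075 and 1245 in control livers and 852, 783 and 847 in momfluorothrin livers (-0.45 ± 0.09, adjusted p = 0.136 in limma). Bdh2, a cytosolic dehydrogenase named for hydroxybutyrate, had 46.6, 33 and 32.9 against 70.3, 104 and 67.7 (1.10 ± 0.22, adjusted p = 0.136 in limma). Neither gene's groups overlapped. Acsl5, which activates long-chain fatty acids to CoA esters, had 948, 1111 and 673 against 478, 611 and 507 (-0.75 ± 0.18, adjusted p = 0.182 in limma), and a further probe set with overlapping groups was at -0.42 ± 0.20. Dao, the peroxisomal oxidase of D-amino acids, had 338, 359 and 286 against 413, 499 and 426 (0.45 ± 0.12, adjusted p = 0.228 in limma). Ppara itself was at 49.1, 67.5 and 32.9 in control livers and 45.5, 66.6 and 52.3 in momfluorothrin livers (0.18 ± 0.27), lowest in control replicate 3 and below 0 without it.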

How the data were processed

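Liver RNA of 6 rats was hybridised to 1-colour Affymetrix arrays. The deposited table holds MAS5 intensities on a linear scale, 1 signal per probe set, per the submitters' processing notes, which as used here name no version or setting. Trimmed means, leaving out 2% at each end, were about 100 on every array, and the values were used without rescaling. The 57 control probe sets among 31099 were dropped, and a probe set was tested if at least 3 of the 6 arrays showed it above that array's median, which 15778 did. The platform annotation gave 1 symbol for 20826 probe sets, several for 436 and none for 9780. A single symbol was replaced by the current RefSeq symbol of the same gene identifier where there was one. For a gene with several tested probe sets, the one of highest mean log2 signal stands for it.

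Log2 signals were fitted without a pseudocount in limma 3.58.1 (R 4.3.3; lmFit and eBayes, intensity trend on), 2-sided, and p-values were adjusted by Benjamini-Hochberg across the tested probe sets. Signals are given per array in the order of replicates 1 to 3, and differences as momfluorothrin minus control ± SE. The number of arrays sets the precision. The fit was tested on simulated data. The alternatives were other filters and scalings, a pseudocount of 16, other variance models, the mean over probe sets, a replicate block and leaving out each array. For the class medians, the classes of Crat, Eci2 and Amacr were also varied. Per-array values are given for members with an unadjusted p under 0.05 or groups that did not overlap, the 2 highest and 2 lowest differences of each enzyme class, Cpt1a, Ehhadh, Pdk4, Fgf21 and Angptl4; those of Hsd17b4, Acadl, Acot1, Acot4, Acox2, Pex11a and Vnn1 were added after their values were seen. Of the other pathway genes, the rule named the 4 with the smallest p and Ppara; some items are not reported here. The members and lists were chosen with earlier results of these data known. Replicates are separate animals per the labels. Equal replicate numbers did not pair the animals of the groups (correlations of their deviations -0.0997, 0.105 and -0.0648).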

Additional observations from a re-analysis of the deposited data

How the results depend on the processing

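No tested member was past the threshold under any of the 9 alternatives that keep all arrays (38 members tested in 8 of them; 36 under the filter at the 70th percentile, which Acot1 and Fgf21 did not pass), and 0 to 1 were when each array was left out (Acot8, without control replicate 2). The number of probe sets called was 27, against 3 without an intensity trend and 15 with a replicate block, and 5 to 27 leaving out single arrays (15, 5 and 7 without momfluorothrin replicates 1, 2 and 3). The replicate block changed no member's call. The count of members that did not overlap was 6 (15.8%, against 18.3% of all genes). It was 8 to 17 leaving out single arrays, where fewer samples must be apart. Without control replicate 3 it was 17 (44.7%, against 29.5% of all genes), and without momfluorothrin replicate 1 it was 12. The share over all genes was not taken for the other arrays left out, so nothing is read from these counts. Leaving out arrays, the median difference ran from -0.07 to 0.11 for peroxisomal and from -0.04 to 0.03 for mitochondrial enzymes. With Crat and Eci2 counted as peroxisomal and Amacr left out, the peroxisomal median was 0.03 over 12 genes.

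Small differences changed sign. With quantile normalization Acaa2 was at 0.02, Cat at 0.05, Eci2 at -0.03 and Slc25a20 at -0.03, with median centring Hadha was at 0.03, with array weights Decr1 was at -0.0014, and as a mean over probe sets Acot2 was at -0.004; the cause was not tested. Leaving out single arrays, differences ran from -0.13 to 0.07 for Acaa2, -0.09 to 0.01 for Acadm, -0.11 to 0.0021 for Acadvl, -0.43 to 0.18 for Acot4, -0.12 to 0.21 for Amacr, -0.20 to 0.18 for Angptl4, -0.02 to 0.23 for Bdh1, -0.02 to 0.17 for Crat, -0.05 to 0.07 for Decr1, -0.03 to 0.09 for Eci1, -0.06 to 0.04 for Eci2, -0.31 to 0.32 for Ehhadh, -0.03 to 0.05 for Hadh, -0.06 to 0.03 for Hadha, -0.38 to 0.10 for Pex11a, -0.09 to 0.43 for Ppara, -0.05 to 0.06 for Slc25a20 and -0.02 to 0.27 for Vnn1. Signal over background limits Acot1 and Fgf21, which lie near the array medians. Of the further pathway genes named, Bdh2 and Ppara are limited likewise, and neither passed the filter at the 70th percentile.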
